A study of Mus musculus with 27 samples.

Results

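The 9 genes described here mark or carry out heat production in brown fat: Ucp1, Cidea, Ppargc1a, Ppargc1b, Prdm16, Dio2, Elovl3, Cox7a1 and Cox8b. They were taken by symbol from deposited expression tables that list 24825 genes, and all 9 were found there. Polyadenylated RNA was sequenced from C2C12 cells, an immortalised mouse myoblast line that forms muscle fibres in culture. Control cells were compared with cells expressing full-length NFIA, a DNA-binding factor of the nuclear factor I family, and with cells expressing a Δpro#3 mutant (deltapro#3 in the labels), which is NFIA without a short proline-rich stretch at its C-terminal end. The constructs were delivered with pMXs retroviral vectors, so NFIA was expressed from a viral promoter and not from its own gene. Each kind of cell was sampled at day 0, at day 7 of adipogenic differentiation, and at day 7 following 4 h of 10 µM forskolin, which gives 9 groups of 3 replicates (27 samples). All day 7 groups, controls included, had received isobutylmethylxanthine, indomethacin, dexamethasone, insulin, triiodothyronine and rosiglitazone at first, then insulin with triiodothyronine and rosiglitazone. The labels do not say whether replicates were separate cultures, so the p-values measure the spread between these samples, which may be technical.

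Brown fat cells burn fuel to make heat. UCP1, the protein of Ucp1, lets protons leak back across the inner mitochondrial membrane, so that respiration releases heat in place of ATP. Cold reaches these cells as noradrenaline, which raises cAMP, and cAMP switches on Ucp1, the coactivator gene Ppargc1a and the deiodinase gene Dio2. Forskolin activates adenylyl cyclase directly and so raises cAMP without a receptor. Cox7a1 and Cox8b encode respiratory chain subunits that heart and skeletal muscle share with brown fat, and C2C12 cells are muscle cells, so these genes are not marks of fat alone in this culture.

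Promoter sequence is shown for 4 members, so that the cAMP response element (CRE) and the binding core of the NFI family can be seen. Of the 9 members, 6 had an entry (GRCm38.p6, a later build than that of the expression files). Cidea, Ppargc1b and Elovl3 had none. The 250 bases before each start site are given 5′ to 3′ on the strand of the gene, and positions are counted back from the start site. The capitals mark the full CRE in Dio2 (chr12:90739039-90739288, minus strand), the CRE core in Ppargc1a (chr5:51567726-51567975, minus strand) and in Ucp1 (chr8:83290098-83290347, plus strand), and the NFI core in Cox8b (chr7:140900447-140900696, minus strand).
Dio2: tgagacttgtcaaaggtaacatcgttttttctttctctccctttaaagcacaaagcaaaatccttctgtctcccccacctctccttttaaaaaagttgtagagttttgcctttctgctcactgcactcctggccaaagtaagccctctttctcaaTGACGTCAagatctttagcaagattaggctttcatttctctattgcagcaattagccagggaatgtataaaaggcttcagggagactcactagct
Ppargc1a: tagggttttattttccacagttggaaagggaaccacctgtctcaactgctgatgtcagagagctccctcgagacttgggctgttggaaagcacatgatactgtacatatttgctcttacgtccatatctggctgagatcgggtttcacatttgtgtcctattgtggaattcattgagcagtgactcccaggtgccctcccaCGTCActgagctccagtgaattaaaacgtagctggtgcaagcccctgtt
Ucp1: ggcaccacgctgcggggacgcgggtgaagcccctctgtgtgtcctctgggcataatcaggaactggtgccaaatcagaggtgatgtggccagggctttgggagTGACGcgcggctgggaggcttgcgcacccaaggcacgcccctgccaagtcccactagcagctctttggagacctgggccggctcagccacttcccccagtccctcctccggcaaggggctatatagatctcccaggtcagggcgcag
Cox8b: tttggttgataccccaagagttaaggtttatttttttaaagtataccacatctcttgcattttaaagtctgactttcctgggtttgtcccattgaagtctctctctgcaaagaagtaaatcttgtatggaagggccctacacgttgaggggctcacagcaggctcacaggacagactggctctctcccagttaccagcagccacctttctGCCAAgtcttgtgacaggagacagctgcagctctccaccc

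The full CRE, TGACGTCA, lay at positions -95 to -88 of Dio2, and 1.55% of the 32851 promoters in the table held it. The core of the CRE, TGACG, is part of that motif and was counted on both strands, as were all motifs here. It lay at positions -49 to -45 of Ppargc1a, on the minus strand, and at -147 to -143 of Ucp1, against 17.8% of all promoters. The NFI core TTGGC, held by 41.5% of promoters, was found in Cox8b, Dio2, Prdm16 and at 2 places in Ucp1, but the palindrome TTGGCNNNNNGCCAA (0.0365%) was in none of the 6. The nuclear receptor core AGGTCA (14%) was found in Ucp1 only among the 6, at positions -14 to -9. The motifs AGGTCANAGGTCA (0.0335%) and TCAAGGTCA (0.387%), the second of which holds AGGTCA, were in none. The E-box CAGCTG (13%), a motif of muscle regulatory factors, lay at -19 to -14 of Cox8b, and CCAAT (33.8%) was in Prdm16 and at 2 places in Cox7a1, and can share letters with TTGGC on the other strand. These letters are a description of short windows, and enhancers farther away were not searched.

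Between 9567769 and 27230965 fragments per sample were counted to genes (median 17707223). Nfia itself had 225 to 250.2 FPKM (fragments per kilobase of gene, scaled to library depth) in full-length NFIA-expressing cells at day 0 and 397 to 423 FPKM in Δpro#3 mutant-expressing cells, against 0.879, 7.35 and 0.175 FPKM in the 3 control samples. At day 7 the corresponding ranges were 457 to 528, 374 to 480.5 and 0.0885 to 0.253 FPKM, and after forskolin 497 to 594, 262 to 344 and 0.0944 to 0.195 FPKM. Fragments from the viral copy and those from the cell's own gene cannot be told apart. The kind of culture also differed between groups. The summed level of 12 adipocyte markers at day 7 was 364 to 401 FPKM in control, 13782 to 15298 FPKM in full-length NFIA-expressing and 641 to 2079 FPKM in Δpro#3 mutant-expressing cells, and that of 19 skeletal muscle markers was 16861 to 19637, 2806 to 3891 and 19438 to 20459 FPKM. The high mutant value came from replicate 1, in which Fabp4, a lipid-binding protein of fat cells, had 1415 FPKM against 294 and 354 FPKM in the others. Macrophage (6 listed, sums up to 26.6 FPKM), endothelial (4 listed, up to 1.43 FPKM) and heart markers (7 listed, up to 18.1 FPKM) were low in all groups, and Ptprc, the pan-leukocyte marker, had a group mean of at most 0.0165 FPKM. In such a culture fewer cells of a type and less RNA per cell cannot be told apart, and the part of these marker shifts in the results below was not tested.

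**Figure D1:**
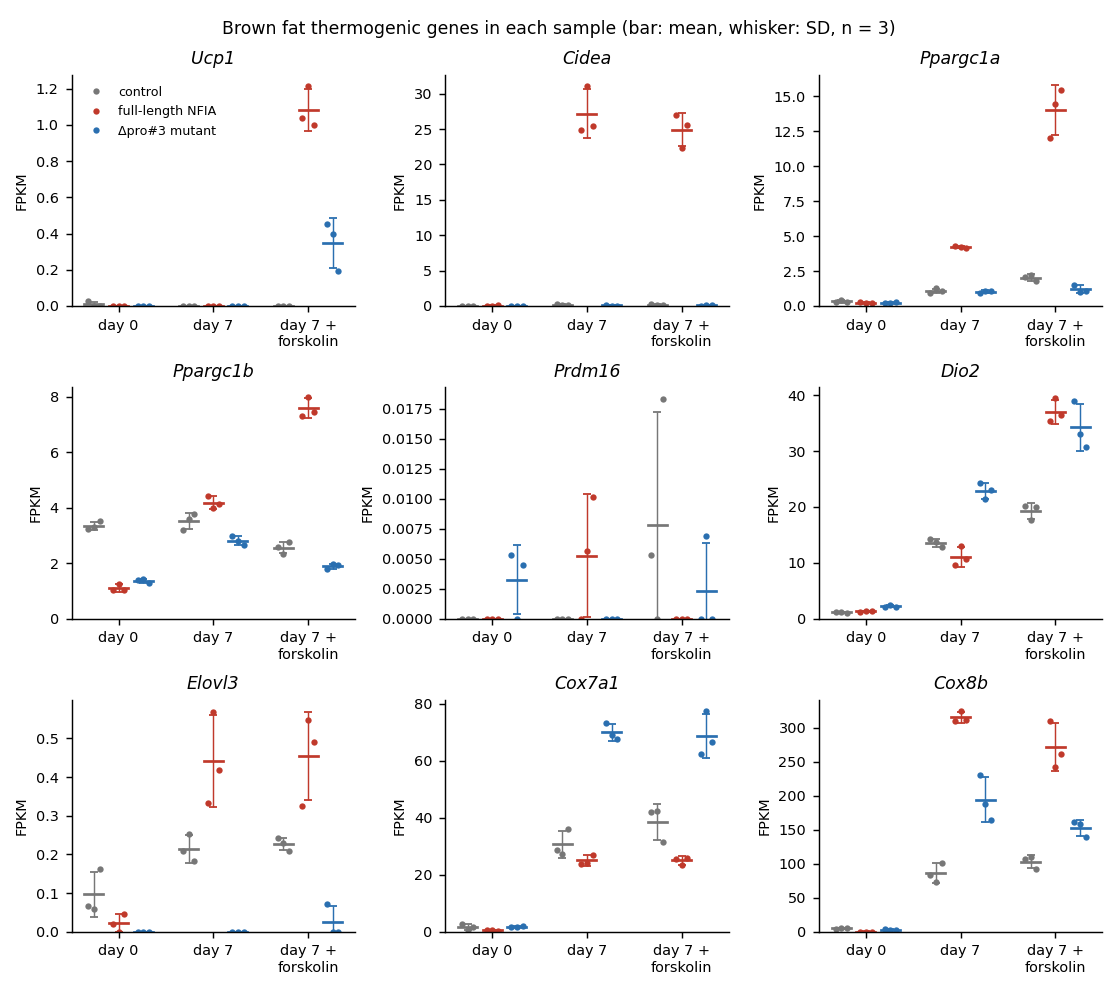
FPKM of the 9 genes (vertical axes, each with its own scale from 0) in every sample of the 9 groups (horizontal axis: day 0, day 7, day 7 with forskolin). Points are samples, bars means and whiskers SD (n = 3). Ucp1 was above 0.03 FPKM only in the 2 construct groups given forskolin, Cidea above 1 FPKM only with full-length NFIA at day 7 with or without forskolin, and Prdm16 never passed 0.0183 FPKM.

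Comparisons were made on log2(FPKM + 1) with limma, and a gene was called when its adjusted p was under 0.05 and its change over 3-fold on that scale. Adding 1 understates the change of genes with few fragments. Genes with a mean under 0.5 FPKM in the samples fitted were not tested. That left 4 of the 9 members at day 0 (Ppargc1b, Dio2, Cox7a1, Cox8b) and 6 in every other fit (these with Cidea and Ppargc1a), while Ucp1, Elovl3 and Prdm16 passed in none. Between 46.6% and 73.3% of the genes tested had an adjusted p under 0.05 when constructs were compared within a time point, so the size of a change is given with each p. The comparisons of full-length NFIA and of the mutant with control share the control samples.

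Ppargc1a (chr5:51845488-51958964, minus strand, NCBIM37) encodes PGC-1α, a coactivator that drives mitochondrial biogenesis and is itself induced by cAMP. At day 0 it was low in all cells, with 0.256, 0.446 and 0.314 FPKM in control, 0.26, 0.228 and 0.188 FPKM with full-length NFIA and 0.222, 0.247 and 0.263 FPKM with the mutant. At day 7 it had 4.30, 4.25 and 4.16 FPKM with full-length NFIA, 0.946, 1.25 and 1.04 FPKM in control and 0.926, 1.09 and 1.07 FPKM with the mutant. The samples with full-length NFIA lay above all others, and those of control and mutant overlapped. The difference between full-length NFIA and control was 1.34 on the log2 scale (SE 0.08, limma adjusted p = 1.45e-07), a ratio of 3.93 between the mean FPKM values that fell short of the 3-fold threshold once 1 was added. For the mutant against control it was -0.03 (95% interval -0.21 to 0.14, adjusted p = 0.761). Forskolin brought Ppargc1a to 12.0, 14.5 and 15.5 FPKM with full-length NFIA, the highest values of the gene in the study, to 2.06, 2.25 and 1.78 FPKM in control, and to 1.52, 0.982 and 1.09 FPKM with the mutant. Between full-length NFIA and control the difference was then 2.30 (SE 0.12, adjusted p = 1.77e-08), and between mutant and control it was -0.47 (SE 0.12, adjusted p = 0.00693).

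Ppargc1b (chr18:61457790-61560085, minus strand) encodes PGC-1β, a related coactivator that is not known for induction by cold. Of the 6 members tested at day 7 it was the one whose level in control cells, 3.23, 3.29 and 3.52 FPKM at day 0 and 3.20, 3.61 and 3.78 FPKM at day 7, overlapped between these days. With full-length NFIA it had 1.02, 1.27 and 1.04 FPKM at day 0, with the mutant 1.40, 1.42 and 1.30 FPKM, and all samples of both lay below control. The differences from control were -1.04 (SE 0.06, limma adjusted p = 4.79e-08) and -0.87 (SE 0.06, adjusted p = 4.21e-07). At day 7 the full-length samples had 4.43, 4.00 and 4.14 FPKM and the mutant samples 2.97, 2.82 and 2.67 FPKM. Full-length NFIA lay above control by 0.20 (adjusted p = 0.0339) and the mutant below it by -0.24 (adjusted p = 0.021), changes that lost this p in some of the alternative fits, the first among them without the filter on low values (0.0543). After forskolin the gene had 7.31, 7.99 and 7.44 FPKM with full-length NFIA, 2.60, 2.34 and 2.75 FPKM in control and 1.79, 1.97 and 1.93 FPKM with the mutant, and the 3 groups did not overlap. The rise from day 0 to the forskolin samples thus ran in the full-length cells from the lowest level of the gene to its highest.

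Prdm16 (chr4:153690234-154010982, minus strand) encodes a zinc finger coregulator that specifies brown over muscle fate. It had 0, 1 or 2 fragments in every sample, and its highest value was 0.0183 FPKM in a control sample with forskolin. In the full-length NFIA-expressing cells with forskolin no fragment was found, which allows a level of up to 0.00735 FPKM over the group at 3 fragments. Such floors, and the intervals on counts below, cover counting error only. No difference in Prdm16 was detectable at this depth. Its close relative Mecom (Prdm3) was measured, at 1.79 ± 0.0638 FPKM in control, 1.40 ± 0.127 FPKM with full-length NFIA and 0.941 ± 0.0482 FPKM with the mutant at day 7 (SD, n = 3 each). Pprc1, the other PGC-1 family gene, had 16.1 ± 1.48, 6.19 ± 0.680 and 10.3 ± 1.28 FPKM in the same order, so its order at day 7 was the reverse of that of Ppargc1a for full-length NFIA and control (-1.25, SE 0.10, limma adjusted p = 1.51e-06).

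Ucp1 (chr8:85814247-85822355, plus strand) was at 0 fragments in all 9 samples at day 7 without forskolin and in the 3 control samples with forskolin. At day 0 there was 1 fragment in 1 control sample. After forskolin it had 1.04, 1.22 and 1.00 FPKM in the full-length NFIA-expressing cells (25, 35 and 25 fragments) and 0.452, 0.397 and 0.192 FPKM in the Δpro#3 mutant-expressing cells (11, 11 and 8 fragments). The 2 construct groups did not overlap, and each sample of both lay above every control sample. Empty groups were set to the floor of 3 fragments over the group. The pooled level with full-length NFIA was then 31.8-fold that of control with forskolin and 24.9-fold that of the same cells without it. For the mutant these ratios were 9.34-fold and 8.94-fold. Such ratios to a floor leave out the counting error of the higher group, so they are not 95% bounds. Full-length NFIA exceeded the mutant by 3.41-fold (95% counting interval 2.23 to 5.36). A two-sided exact permutation test gave p = 0.1 for each of these 5 comparisons, the smallest that 3 samples against 3 allow. The paralogs Ucp2 and Ucp3, which do not drive brown fat heat production, were detected at day 7 in all cells. Ucp3 had 3.67 ± 0.341 FPKM in control, 20.2 ± 1.11 FPKM with full-length NFIA and 5.69 ± 1.39 FPKM with the mutant at day 7 (SD, n = 3 each), and at most 0.0630 FPKM in any sample at day 0. Ucp2 had 338 ± 11.0 FPKM at day 7 and 1209 ± 75.5 FPKM after forskolin with full-length NFIA, against 16.1 ± 1.10 and 38.4 ± 4.46 FPKM in control and 41.2 ± 9.55 and 52.5 ± 21.5 FPKM with the mutant (SD, n = 3 each).

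Dio2 (chr12:91962994-91976878, minus strand) encodes the deiodinase that converts thyroxine to active thyroid hormone inside brown fat, and its promoter holds the full CRE shown above. The gene was expressed in all cells. At day 0 it had 1.22, 1.23 and 1.08 FPKM in control, 1.19, 1.35 and 1.46 FPKM with full-length NFIA and 2.18, 2.43 and 2.09 FPKM with the mutant. At day 7 it had 14.2, 13.8 and 12.8 FPKM in control, 9.57, 13.1 and 10.7 FPKM with full-length NFIA and 24.3, 21.4 and 23.0 FPKM with the mutant. The mutant lay above both at both times, and control and full-length NFIA overlapped. The difference from control at day 7 was 0.71 for the mutant (SE 0.10, limma adjusted p = 0.000259) and -0.28 for full-length NFIA (SE 0.10, adjusted p = 0.0257, and 0.128 after median-ratio scaling). After forskolin the order was another one, and Dio2 had 35.3, 39.5 and 36.4 FPKM with full-length NFIA, 38.9, 33.1 and 30.7 FPKM with the mutant and 20.2, 17.6 and 20.0 FPKM in control. Both construct groups lay above control and overlapped each other (mutant against full-length -0.12, 95% interval -0.31 to 0.08, adjusted p = 0.263).

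Cidea (chr18:67503218-67527448, plus strand) encodes a lipid droplet protein that is a classic mark of brown over white fat. It had 24.9, 31.2 and 25.5 FPKM with full-length NFIA at day 7, against 0.226, 0.153 and 0.147 FPKM in control and 0.152, 0.0392 and 0 FPKM with the mutant. At day 0 no sample passed 0.152 FPKM. The pooled level with full-length NFIA at day 7 was 159-fold that of control (95% counting interval 83.7 to 349, from 1363 and 9 fragments) and 557-fold that of the mutant (190.1 to 2703, from 1363 and 3 fragments). Cidea passed the filter at day 7 only through the group with full-length NFIA, so it had to differ there, and its differences and calls against that group, at every time, are a description. On the log2 scale these differences were 4.58 against control and -4.72 for the mutant against full-length NFIA. Both mutant and control lay under the filter, with 3 and 9 fragments, and a difference between them was not detectable at this depth (control 3.49-fold the mutant, 95% counting interval 0.871 to 20.1). Forskolin left Cidea at 26.9, 22.3 and 25.6 FPKM with full-length NFIA, 0.274, 0.139 and 0.135 FPKM in control and 0.0581, 0.102 and 0.0676 FPKM with the mutant. Its response was -0.12 with full-length NFIA (95% interval -0.31 to 0.08, adjusted p = 0.295), so no response to forskolin was detectable. Its paralog Cidec, which enlarges lipid droplets in white and brown fat, had 766 ± 19.8 FPKM with full-length NFIA, 11.5 ± 1.92 FPKM in control and 49.0 ± 48.8 FPKM with the mutant at day 7 (SD, n = 3 each), of which mutant replicate 1 had 105 FPKM.

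Elovl3 (chr19:46206387-46210184, plus strand) encodes a fatty acid elongase that is strongly induced by cold in brown fat. It stayed under 0.6 FPKM throughout and was not tested in the main fits. At day 0 it had 0.0673, 0.0586 and 0.163 FPKM in control cells (3, 3 and 8 fragments), 0.0208, 0 and 0.0470 FPKM with full-length NFIA (1, 0 and 1 fragments) and 0 in each mutant sample. The control level was 5.65-fold that with full-length NFIA (95% counting interval 1.30 to 51.2, 14 against 2 fragments). It was 4.39-fold the floor of 3 fragments over the mutant group, which leaves out the counting error of the 14 fragments. An exact two-sided permutation test gave p = 0.1 for each, the smallest that 3 against 3 samples allow. The control samples were thus above both other groups at day 0, the reverse of the order between control and full-length NFIA at day 7. At day 7 it had 0.334, 0.568 and 0.419 FPKM with full-length NFIA, 0.21, 0.253 and 0.182 FPKM in control, and 0 FPKM in the 3 mutant samples. The 3 groups did not overlap. Full-length NFIA exceeded control by 2.16-fold (95% counting interval 1.20 to 4.04, from 37 and 18 fragments). Control was 6.98-fold the floor of 3 fragments over the mutant group, again without the counting error of its own 18 fragments. The exact permutation test again gave p = 0.1 for each, its smallest value here. With forskolin the values were 0.326, 0.548 and 0.49 FPKM with full-length NFIA, 0.242, 0.229 and 0.209 FPKM in control and 0.0719, 0 and 0 FPKM with the mutant, and each group overlapped its own values without forskolin. The family member Elovl6, which elongates palmitate, had 14.6 ± 0.693 FPKM with full-length NFIA, 1.57 ± 0.237 FPKM in control and 3.70 ± 0.375 FPKM with the mutant at day 7 (SD, n = 3 each).

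Cox8b (chr7:148084842-148086345, minus strand) encodes the muscle and brown fat form of a small subunit of cytochrome c oxidase, and was the most abundant member at day 7. Differentiation raised it in all cells. At day 0 it had 4.41, 5.06 and 4.86 FPKM in control, 3.52, 2.13 and 2.13 FPKM with the mutant, and 0, 0.218 and 0.243 FPKM with full-length NFIA (0, 2 and 1 fragments). At day 7 it had 83.2, 72.7 and 102 FPKM in control, 230.2, 188 and 164 FPKM with the mutant, and 310.1, 324 and 312 FPKM with full-length NFIA. The cells with the least Cox8b at day 0 therefore had the most at day 7, and the 3 groups did not overlap at either time. Skeletal muscle markers were lower at day 0 too, with summed levels of 1888 to 2013 FPKM in control, 151 to 159 FPKM with full-length NFIA and 449 to 456 FPKM with the mutant. Of 16 tested, 15 were called lower with full-length NFIA (median -4.61 against 0.01 over all genes), led by the myosin light chain gene Mylpf (-6.93) and the skeletal actin gene Acta1 (-6.60), and 13 with the mutant (median -3.25), led by Myh3 (-4.26) and Mylpf (-4.14). Adipocyte markers also differed at day 0, with summed levels of 43.4 to 52.6 FPKM in control cells, 437 to 464 FPKM with full-length NFIA and 323 to 339 FPKM with the mutant. Of the 5 tested, 4 were called higher than control with full-length NFIA (median log2 difference 2.37), led by Lpl (3.43) and Fabp4 (3.28), and 3 with the mutant (median 1.60), led by Lpl (3.07) and Fabp4 (1.74). Of 2 macrophage markers tested, Lyz2 was called higher with both (3.33 and 2.23). The part of these marker shifts in the day 0 values of Cox8b, Cox7a1 and Ppargc1b was not tested. Full-length NFIA differed from control by -2.33 at day 0 (SE 0.14, limma adjusted p = 5.85e-08) and by 1.88 at day 7 (SE 0.13, adjusted p = 5.18e-07). The mutant differed from control by -0.71 at day 0 (adjusted p = 0.00118, and 0.0774 with a pseudocount of 0.1) and by 1.17 at day 7 (SE 0.13, adjusted p = 7.67e-05, and 1.04 without its replicate 1). After forskolin Cox8b had 106, 109.7 and 91.9 FPKM in control, 310.5, 242 and 262 FPKM with full-length NFIA and 161, 159 and 139.7 FPKM with the mutant, and no response to forskolin reached an adjusted p of 0.05.

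Cox7a1 (chr7:30969190-30971047, plus strand) encodes the heart and muscle form of another small subunit of the same enzyme. It followed Cox8b in rising with differentiation but not in the order of the constructs. At day 0 it had 2.53, 0.702 and 1.68 FPKM in control, 0.64, 0.433 and 0.241 FPKM with full-length NFIA and 1.62, 1.56 and 1.90 FPKM with the mutant. At day 7 it had 73.4, 69.1 and 67.7 FPKM with the mutant, 28.5, 27.3 and 36.1 FPKM in control and 23.7, 24.3 and 27.0 FPKM with full-length NFIA. All mutant samples lay above the rest. The mutant exceeded control by 1.18 on the log2 scale (SE 0.10, limma adjusted p = 1.06e-05), a ratio of 2.29 between the means, and full-length NFIA lay below control by -0.27 (adjusted p = 0.0259, and 0.148 after median-ratio scaling). With forskolin the order was the same, with 62.4, 77.4 and 66.7 FPKM for the mutant, 41.9, 42.5 and 31.4 FPKM for control and 25.7, 23.3 and 26.0 FPKM for full-length NFIA.

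Both subunits have a form that most tissues use, Cox7a2 and Cox8a, and the share of the muscle and brown fat form in the summed FPKM of each pair was compared. At day 0 Cox7a1 made up 1.41% ± 0.744 of its pair in control, 0.432% ± 0.183 with full-length NFIA and 1.65% ± 0.170 with the mutant (SD, n = 3 each). At day 7 these shares were 11.9% ± 0.666, 11.5% ± 0.787 and 32.2% ± 2.80. For Cox8b they were 17.8% ± 0.708, 30.9% ± 1.79 and 33.0% ± 6.25 at day 7. The 3 mutant samples lay above all others for Cox7a1, whereas for Cox8b mutant and full-length NFIA overlapped and both lay above control. Cox7a2 had 148 ± 12.9 FPKM with the mutant and 226 ± 20.4 FPKM in control, so numerator and denominator moved in opposite directions there (-0.61 for Cox7a2, SE 0.08, limma adjusted p = 0.000167). Cox8a had 705 ± 44.8 FPKM with full-length NFIA and 394 ± 51.4 FPKM in control, so both forms were higher there (0.84 for Cox8a, SE 0.15, adjusted p = 0.000479). The muscle form of a further subunit, Cox6a2, fell from 235 ± 27.8 FPKM in control to 66.1 ± 9.06 FPKM with full-length NFIA (-1.82, SE 0.13, adjusted p = 4.51e-07).

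**Figure D2:**
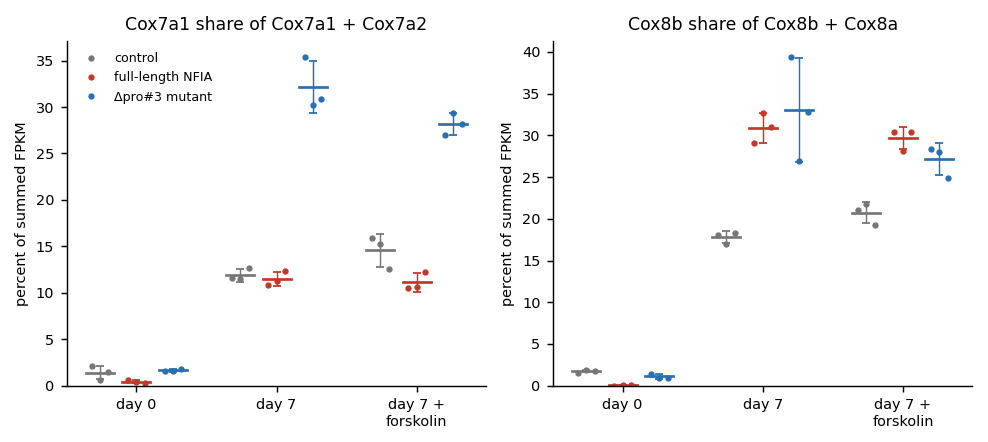
Share of Cox7a1 in Cox7a1 + Cox7a2 (left) and of Cox8b in Cox8b + Cox8a (right), in percent of summed FPKM, for every sample at day 0, day 7 and day 7 with forskolin. Points are samples, bars means and whiskers SD (n = 3). At day 7 the mutant stands at 30.3 to 35.4% for Cox7a1 against 10.8 to 12.6% elsewhere.

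Differentiation called 3 of the 6 tested members higher at day 7 than at day 0 in control cells (Cox7a1, Cox8b and Dio2), where 6.7% of all genes tested were called. The same 3 were called in the mutant cells, beside 6.84% of all genes. In the full-length NFIA-expressing cells 5 of 6 were called, with Cidea and Ppargc1a added, beside 10.1% of all genes. Ppargc1a also rose in control by 0.63 (limma adjusted p = 2.11e-07) and in the mutant by 0.71 (adjusted p = 5.91e-08). Its mean went from 0.338 to 1.08 FPKM in control and from 0.244 to 1.03 FPKM with the mutant, over 3-fold before 1 was added. With limma-voom on fragments 5 of 6 were called in control cells. None of the 6 was called lower in the main fits. Cell type markers rose as well. Of 19 skeletal muscle markers, 17 were called higher in control (median 3.70, led by Myh8 and Myh1) and 17 with full-length NFIA (5.52, Acta1 and Mylpf). With the mutant 18 were (6.96, Tnni2 and Ckm). Of 11 adipocyte markers tested, 6, 8 and 7 were called higher in the same order of cells, each time led by Fabp4 and Cidec. The part of these markers in the rises was not tested. Dio2 rose by 2.74 in control (SE 0.09, limma adjusted p = 3.45e-14), by 2.37 with full-length NFIA and by 2.88 with the mutant, and the smaller rise with full-length NFIA differed from that in control by -0.38 (adjusted p = 0.0108). Cox8b rose by 3.90, 8.11 and 5.77 in the same order, and Cox7a1 by 3.64, 4.18 and 4.72. For Cox7a1 the order in plain FPKM was another one. Its mean went from 1.64 to 30.6 FPKM in control and from 1.69 to 70.1 FPKM with the mutant. With full-length NFIA it went from 0.438 to 25.0 FPKM, the largest fold, from only 11 fragments at day 0. Mean Dio2 went from 1.18 to 13.6 FPKM in control and from 2.24 to 22.9 FPKM with the mutant, a smaller fold there. The rises of Cidea and Cox8b were larger by 4.51 and 4.21 with full-length NFIA than in control, and these 2 were the members called in that difference, beside 7.62% of all genes. This count was 4 with a pseudocount of 0.1 and with limma-voom on fragments, and 1 of 3 tested at a minimum mean of 5 FPKM. In the difference between mutant and control Cox8b alone was called (1.88, SE 0.21, adjusted p = 1.88e-06), beside 2.36% of genes. Between mutant and full-length NFIA, Cidea and Cox8b were called lower in the mutant (5.4% of genes). The rise of Ppargc1b, which was not called in any cells, was larger by 1.24 with full-length NFIA than in control (SE 0.09, adjusted p = 2.96e-09) and by 0.63 with the mutant (adjusted p = 3.10e-05).

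At day 0, 1 of the 4 tested members was called between full-length NFIA and control (Cox8b, lower), beside 5.24% of all genes. None was called between mutant and control (2.18% of genes), where 3 of 4 had an unadjusted and also an adjusted p under 0.05, beside 62.2% of genes under the adjusted p. Cox8b was called higher in the mutant than with full-length NFIA (2.05% of genes), a count that was 0 without replicate 1 of either group. At day 7, 2 of 6 were called between full-length NFIA and control, Cidea and Cox8b, both higher, beside 8.17% of all genes, of which Cidea was tested only because it is high with full-length NFIA. The same holds for Cidea in the counts that follow and in those of the change from day 0. None was called between mutant and control (1.44% of genes), although Cox7a1, Cox8b and Dio2 were higher there with adjusted p values between 1.06e-05 and 0.000259, and 48.8% of genes had an adjusted p under 0.05. Cidea was called lower in the mutant than with full-length NFIA (6.3% of genes). With forskolin, 2 of 6 were called higher with full-length NFIA than in control, Cidea and Ppargc1a (8.02% of genes), none between mutant and control (1.55%), and the same 2 lower in the mutant than with full-length NFIA (6.2%). Scaling the samples by median ratios moved the median of all genes by 0.16 between full-length NFIA and control with forskolin, and the difference for Cox8b became 1.58 in place of 1.39, still short of the threshold.

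**Figure D3:**
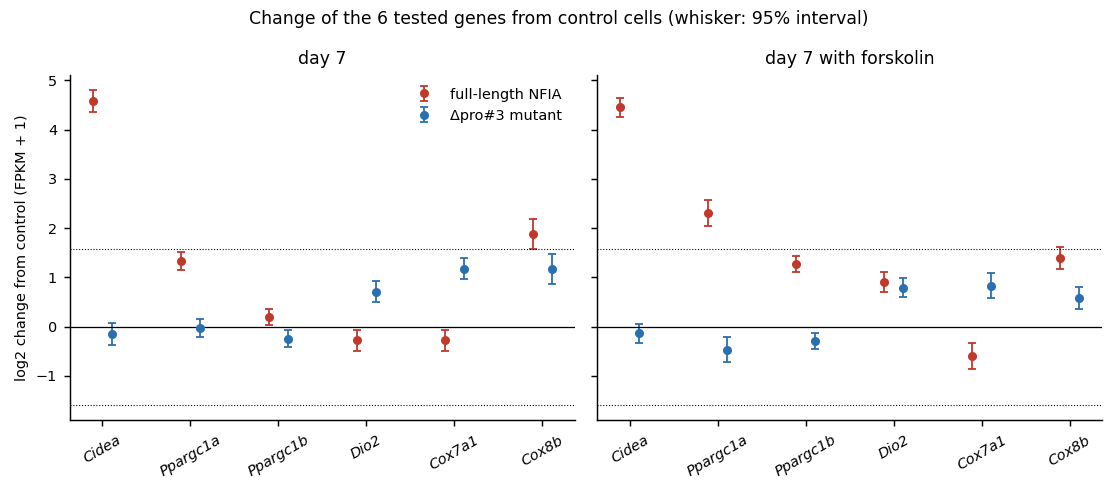
Difference from control cells in log2(FPKM + 1) (vertical axis) for the 6 tested genes at day 7 (left) and at day 7 with forskolin (right). Points are the fitted differences, whiskers 95% intervals and dotted lines 3-fold. Cidea lies at 4.58 and 4.45 for full-length NFIA and at -0.15 and -0.13 for the mutant, where both levels compared are under the filter, while Cox7a1 is above 0 for the mutant and below it for full-length NFIA.

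The response to forskolin divided the members. Dio2 was the only member called, in full-length NFIA-expressing cells, where it rose by 1.66 (SE 0.10, limma adjusted p = 1.21e-09), beside 0.743% of all genes tested. Without full-length NFIA day 7 replicate 1, which had the lowest Dio2 value of its group, it no longer passed 3-fold and the count was 0. Ppargc1a rose by 1.51 in these cells (SE 0.10, adjusted p = 4.23e-09) and Ppargc1b by 0.73 (SE 0.07, adjusted p = 2.14e-07). In mean FPKM Dio2 went from 11.1 to 37.1 there and Ppargc1a from 4.23 to 14.0, folds that were nearly alike and both over 3. Adding 1 thus kept Ppargc1a under the threshold, and with a pseudocount of 0.1 the count of members called was 2. No member was called in control cells (0.392% of genes) or in mutant cells (0.588% of genes). In control cells Dio2 rose by 0.48 (adjusted p = 0.0023) and Ppargc1a by 0.54 (adjusted p = 0.000891), and Ppargc1b fell by 0.34 on the log2 scale (adjusted p = 0.00151). In mutant cells Dio2 rose by 0.55 (adjusted p = 0.000374), the value for Ppargc1a was 0.11 (95% interval -0.11 to 0.32, adjusted p = 0.437), and Ppargc1b fell by 0.40 on the log2 scale (adjusted p = 0.000248). Adipocyte markers moved in the mutant cells as well, where 3 of 11 were called lower after forskolin (median -1.16 against -0.06 over all genes), led by Plin1 (-2.23) and Cidec (-1.64), while 0 were called in control (median -0.18) or with full-length NFIA (median -0.29). The count in the mutant was 1 without day 7 replicate 1, and also without forskolin replicate 2 or 3. It was 5 without day 7 replicate 2 or 3, and also without forskolin replicate 1. The part of these markers in the mutant's response was not tested.

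The differences between these responses were tested directly. Full-length NFIA exceeded control by 1.19 for Dio2 (SE 0.14, limma adjusted p = 1.04e-05), by 0.97 for Ppargc1a (SE 0.14, adjusted p = 8.98e-05) and by 1.07 for Ppargc1b (SE 0.10, adjusted p = 7.61e-07). None of these passed 3-fold, so 0 of 6 members were called, beside 0.572% of all genes, and 4 had an unadjusted and also an adjusted p under 0.05, beside 30.6% of genes under the adjusted p. The mutant fell short of full-length NFIA by -1.11 for Dio2, -1.40 for Ppargc1a and -1.13 for Ppargc1b (adjusted p between 7.88e-07 and 3.76e-05), with 0 called beside 0.367% of genes, and 21.7% of genes had an adjusted p under 0.05. Mutant and control did not differ at an adjusted p of 0.05 for any of the 6, with 0 called beside 0.212% of genes. The difference was 0.08 for Dio2 (95% interval -0.22 to 0.37) and -0.06 for Ppargc1b (-0.26 to 0.15), and -0.44 for Ppargc1a (-0.74 to -0.14, adjusted p = 0.0922). Ucp1 stood apart from these genes, since it appeared after forskolin in the mutant cells and in no control sample. After median-ratio scaling, the response differences between full-length NFIA and control were 1.27, 1.08 and 1.15 for Dio2, Ppargc1a and Ppargc1b.

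**Figure D4:**
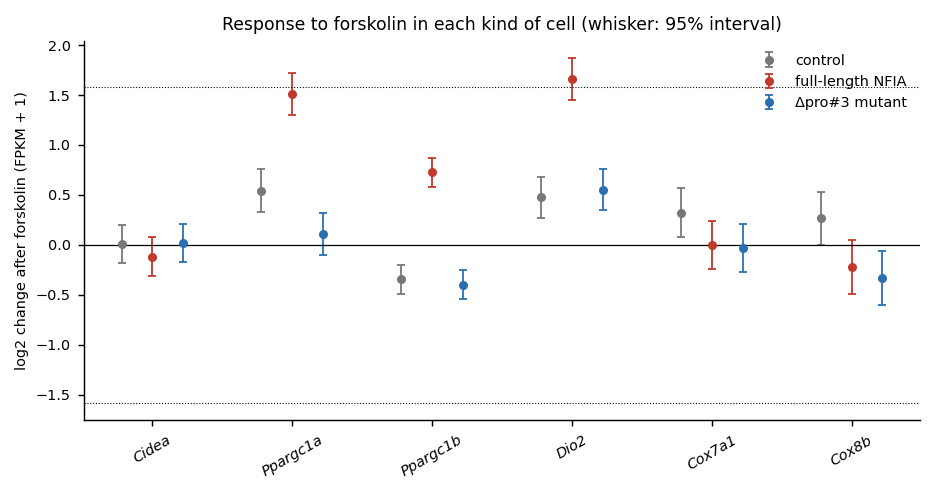
Change in log2(FPKM + 1) after forskolin (vertical axis) for the 6 tested genes at day 7, in the 3 kinds of cell. Points are fitted changes, whiskers 95% intervals and dotted lines 3-fold. Ppargc1a, Ppargc1b and Dio2 respond most with full-length NFIA (1.51, 0.73 and 1.66), and the values for Cidea, Cox7a1 and Cox8b lie between -0.33 and 0.32 in all cells.

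Known cAMP response genes were looked at in the same samples. Of 18 listed, 16 were tested. In control cells 1 was called higher after forskolin, Pde4b, a cAMP-degrading enzyme (1.97, SE 0.07), and in mutant cells the same gene alone (1.86, SE 0.07). With full-length NFIA 6 were called higher, led by the orphan nuclear receptor genes Nr4a3 (4.51, SE 0.10, limma adjusted p = 4.17e-15) and Nr4a1 (3.27, SE 0.09, adjusted p = 7.50e-14). The median change of the 16 was 0.42 in control, 1.47 with full-length NFIA and 0.78 with the mutant, against -0.05, -0.15 and -0.06 over all genes tested. In the difference between full-length NFIA and control 3 of the 16 were called higher, with Nr4a3 (3.56, SE 0.14) and Nr4a2 (2.52, SE 0.15) the largest. Pde4b rose to 25.9 ± 0.560 FPKM in control, 15.7 ± 1.16 FPKM with full-length NFIA and 24.9 ± 2.07 FPKM with the mutant (SD, n = 3 each).

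**Figure D5:**
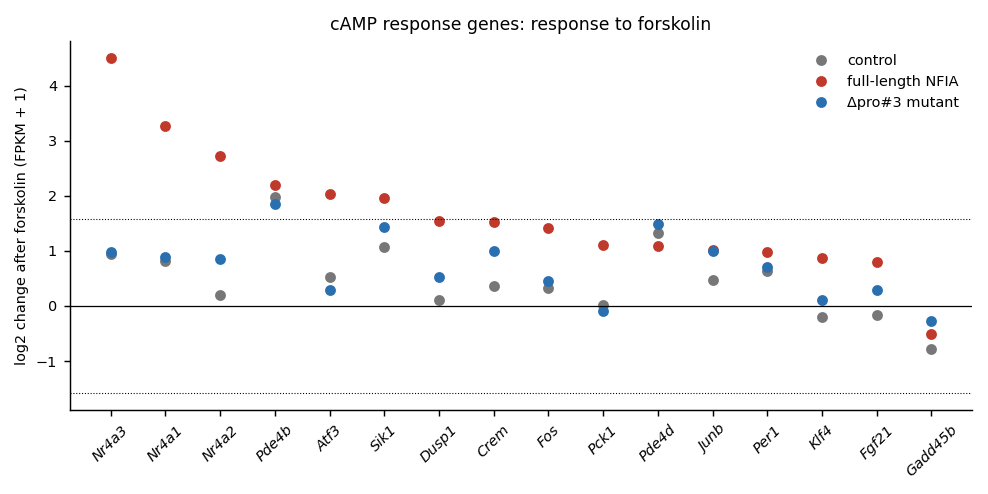
Change in log2(FPKM + 1) after forskolin (vertical axis) for the 16 tested cAMP response genes (horizontal axis, ordered by the change with full-length NFIA) in the 3 kinds of cell. Each point is 1 fitted change and dotted lines mark 3-fold. Nr4a3 reaches 4.51 with full-length NFIA and 0.95 to 0.98 in the others, while Pde4b lies between 1.86 and 2.20 in all.

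Of 17 genes of adrenergic and cAMP signalling, 15 were tested at day 7, and 1 was called between full-length NFIA and control, Prkar2b, a regulatory subunit of protein kinase A (2.65, SE 0.08, limma adjusted p = 1.34e-09). The median was 0.09 against -0.08 over all genes, and none was called for the mutant or in any of the 3 forskolin responses, where 14 were tested. Adrb3, the β3-adrenergic receptor of fat and also named after its values were seen, had 1.54 ± 0.314 FPKM with full-length NFIA at day 7 and 0.0329 ± 0.0130 FPKM in control (SD, n = 3 each). The part of this receptor in the forskolin responses was not tested.

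Of 63 other genes known from brown and beige fat, 44 were tested at day 7 (Gyk was absent from the tables under that name). Full-length NFIA had 11 called higher and 0 lower than control, the largest being Plin1, a lipid droplet coat protein (6.50, SE 0.29, limma adjusted p = 1.80e-08), and Cidec (5.95, SE 0.50, adjusted p = 1.86e-06). The median was 0.42 against -0.08 over all genes. For the mutant 1 was higher (Plin1, 2.08) and 1 lower (Fgf21, a fasting and stress hormone, -1.73, SE 0.26, adjusted p = 0.000405), with a median of 0.05. With forskolin 9 of 42 were called higher and 1 lower between full-length NFIA and control, again led by Plin1 (6.46) and Cidec (5.89), and the one lower was Tbx1, a beige fat marker (-1.96, SE 0.11). Tbx1 was lower by about as much between mutant and control with forskolin (-1.94, adjusted p = 3.59e-07), where 0 of the 42 were called higher and 1 lower. Ebf2 and Lhx8, early marks of brown fat lineage named here after their values were seen, had group means of at most 0.00283 and 0.0176 FPKM at any time. Several genes of this list are general fat genes, and 5 of them (Plin1, Cidec, Lipe, Pparg and Cebpa) are also among the 12 adipocyte markers, of which 11 were tested and 11 called higher with full-length NFIA at day 7 (median 5.82), led by Plin1 and the adipsin gene Cfd (6.48), and 5 with the mutant (median 1.58), led by Plin1 and Cfd (1.99). Mutant replicate 1 had the highest Fabp4 of the 3 (1415 FPKM against 294 and 354), and without it the mutant's count fell to 1 of 11, Plin1 (median 0.82), in a comparison added after the values were seen. Of the 19 muscle markers, 17 were called lower with full-length NFIA (median -2.67), led by Myh7 (-4.01) and Myh8 (-3.86), and 1 higher with the mutant, Myh2 (1.64). Of 7 heart markers 2 were tested and Myh6 was called lower with full-length NFIA (-2.83), and of 6 macrophage and 4 endothelial markers 2 and 0 were tested and none was called.

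Among 21 isoforms and paralogs of the members, 16 were tested at day 7. Full-length NFIA had 4 called higher than control, Cidec, Ucp2 (4.31, SE 0.13, limma adjusted p = 1.11e-09), Elovl6 (2.60) and Ucp3 (2.18), and 1 lower, Cox6a2. The median was 0.38 against -0.08 over all genes, and none was called between mutant and control. Ucp2 was the paralog called in the forskolin response of the full-length cells (1.83, SE 0.19, adjusted p = 7.25e-07), and Cidec was called lower after forskolin in the mutant cells (-1.64, SE 0.48, adjusted p = 0.0144), the group whose replicate 1 stood apart.

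The genes whose pattern over the 9 group means was most like that of each member, by Pearson's r of log2(FPKM + 1) among 7110 genes, are a description, since the means share libraries. For Ucp1 they were Batf3 (r = 0.991), Gng4 and Il31ra, and Batf3 had 1.94 FPKM with full-length NFIA and forskolin and 0.484 FPKM with the mutant and forskolin. For Cidea they were Krt79 (r = 0.9998), Erv3 and 6030408B16Rik, and Krt79 had 17.9 FPKM with full-length NFIA at day 7 and 0.095 FPKM in control. For Ppargc1a they were Dnajb9 (r = 0.981), Tapt1 and Gpcpd1, and for Ppargc1b Acadl (r = 0.950), Cdip1 and Crls1. For Dio2 they were Hax1 (r = 0.978), Ppme1 and Adgrd1, for Cox7a1 2010107E04Rik (r = 0.992), Timm8b and Napa, and for Cox8b Aldoa (r = 0.991), Fabp3 and Atp5c1. Among the 7 members compared with each other in this way, Dio2, Cox7a1 and Cox8b were most alike over the group means (r between 0.917 and 0.945), and Cidea and Cox7a1 least (r = 0.225). Dio2, Cox7a1 and Cox8b were all called higher at day 7 than at day 0 in every kind of cell. Their order at day 7 without forskolin was not shared, with Cox8b highest with full-length NFIA and the others with the mutant.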

How the data were processed

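The authors prepared stranded libraries from polyadenylated RNA, aligned reads to mm9 with STAR 2.5.3a (per the submitters' processing notes), counted uniquely mapped reads on the matching strand and deposited FPKM values for 24825 genes in 27 samples. Of the symbols in the tables, 26 had been turned into dates and none is a gene of interest here. Fragments were worked back from the deposited FPKM and gene lengths, and all values came out whole within 0.01.

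Genes with a mean of at least 0.5 FPKM in the samples fitted were tested on log2(FPKM + 1) with limma 3.58.1 in R 4.3.3, with 1 mean per group, moderation with a trend and Benjamini-Hochberg adjustment over all genes tested. Fits held the 9 samples of a time point, or 18 samples for forskolin responses, for changes from day 0 to day 7 and for differences between them. A call needed an adjusted p under 0.05 and over 3-fold. Ucp1, Elovl3 and Prdm16, under the filter, were compared by fragments and by exact permutation tests (scipy 1.17.1, Python 3.11.15, numpy 2.4.6, matplotlib 3.10.9). Intervals and floors cover counting error only.

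All 9 members are named. For each comparison in which a gene list is used, the text names up to 2 of its largest called rises and falls, and the isoforms and paralogs of members. Adrb3, Ebf2, Lhx8 and Ptprc fall outside this rule and were named after their values were seen. The lists held brown and beige fat genes, adrenergic and cAMP signalling, cAMP response genes, isoforms and paralogs, and adipocyte, muscle, heart, macrophage and endothelial markers. The members and lists were chosen with earlier results of these data known. Beside leaving out each sample, 8 alternatives were run. Positions are those of NCBIM37 (mm9), and promoters come from RefSeq on GRCm38.p6.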

Additional observations from a re-analysis of the deposited data

Results flagged for a closer look

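These results are listed because the effect of forskolin, or the change from day 0 to day 7, differed between kinds of cell by a limma test of the difference itself (log2 scale, adjusted p in parentheses, 3 samples in each group). No explanation was tested.

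For the forskolin response, full-length NFIA minus control was 1.19 for Dio2 (1.04e-05), 0.97 for Ppargc1a (8.98e-05), 1.07 for Ppargc1b (7.61e-07) and -0.49 for Cox8b (0.0491). The Cox8b difference had adjusted p values of 0.0521, 0.121, 0.0863 and 0.0558 with a pseudocount of 0.1, after median-ratio scaling, without the filter and without a trend. Mutant minus full-length NFIA was -1.11 for Dio2 (3.76e-05), -1.40 for Ppargc1a (4.24e-06) and -1.13 for Ppargc1b (7.88e-07).

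For the change from day 0 to day 7, full-length NFIA minus control was 4.51 for Cidea, 4.21 for Cox8b (2.18e-11), 1.46 for Ppargc1a (8.77e-10), 1.24 for Ppargc1b (2.96e-09) and -0.38 for Dio2 (0.0108). Mutant minus control was 1.09 for Cox7a1 (0.00269), 1.88 for Cox8b (1.88e-06) and 0.63 for Ppargc1b (3.10e-05). Mutant minus full-length NFIA was -4.66 for Cidea, -2.33 for Cox8b (5.22e-08), -1.39 for Ppargc1a (2.52e-09), -0.61 for Ppargc1b (1.85e-05) and 0.52 for Dio2 (0.00142). Cidea passed the filter only because it is high with full-length NFIA, so both of its values are a description and no p is given. With a pseudocount of 0.1, the Cox7a1 difference had an adjusted p of 0.0818. The last Dio2 difference was 0.34 (0.0552) with that pseudocount and 0.25 (0.183) with limma-voom on fragments.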

How the results depend on the processing

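Of 120 tests of members, 86 had an adjusted p under 0.05. None of these changed direction under any alternative run. The p was lost by 4 with a pseudocount of 0.1, 4 after median-ratio scaling, 2 without the filter, 2 with limma-voom on fragments, 1 of 85 in fits of only the groups compared, 1 without a trend, 0 of 45 at a minimum mean of 5 FPKM, and 31 of 636 when a sample was left out. The cause was not tested.

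The number of members called became 2 with a pseudocount of 0.1 for full-length NFIA against control at day 0, and 2 with a pseudocount of 0.1 and with limma-voom for mutant against full-length NFIA at day 0 and at day 7. For the forskolin response with full-length NFIA it was 2 with a pseudocount of 0.1, after scaling and with limma-voom, and ran from 0 to 2 when a sample was left out. For mutant against full-length NFIA at day 0 it ran from 0 to 1, and with forskolin from 2 to 3. For day 7 against day 0 it was 5 with limma-voom in control, and 3 with full-length NFIA at a minimum mean of 5 FPKM, where 3 members were tested. For the difference in that change between full-length NFIA and control it was 4 with a pseudocount of 0.1, 4 with limma-voom and 1 at the minimum of 5 FPKM, and between mutant and full-length NFIA 1 at that minimum. At day 0 that minimum left no member to test.

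Under a replicate block the counts were as without it in all 21 comparisons, 2 for full-length NFIA against control at day 7, and 1 of 86 tests lost its p (Ppargc1b, adjusted p = 0.0637). Samples with the same number did not deviate together on average (mean correlation 0.0139 at day 0, -0.0314 at day 7 and -0.00195 with forskolin). No pairing by number was detectable, which does not exclude that such samples were handled together. Depth limits Ucp1, Elovl3 and Prdm16, Cidea outside full-length NFIA at day 7 (1 to 12 fragments a group), and Cox8b and Cox7a1 with full-length NFIA at day 0 (3 and 11 fragments), on which their differences at day 0 and rises to day 7 rest. The pooled Cox8b rise there was 2390-fold with a 95% counting interval of 817 to 11593.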
